A study of Mus musculus with 8 samples.

Results

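The genes described here encode the intraflagellar transport (IFT) machinery and the BBSome, the protein coat that links cargo to it, with their dynein motor, assembly chaperonin, small GTPases and adaptors. They were taken by name from the deposited gene table, where 41 of the 41 names were found as protein-coding genes among 22046, on 16 chromosomes. Their transcripts were measured by bulk RNA-seq in whole testes of 8 mice whose spermatogenesis had been synchronized by an inhibitor of retinoic acid synthesis followed by retinoic acid (RA) on postnatal day 9. The 4 control mice (Sync-Spdya fl/fl, genotype Spdyafl/fl, libraries Ctrl1 to Ctrl4) carried 2 floxed copies of Spdya and no Cre. The 4 Sync-Spdya cKO mice (Spdyafl/fl;Ddx4-CreERT2, libraries cKO1 to cKO4) carried in addition the tamoxifen-inducible Cre of the germ cell gene Ddx4, which deletes exon 2 of Spdya, an activator of cyclin-dependent kinase at meiotic telomeres. Both groups received tamoxifen 2 times, at RA7.5 and RA8.5 by the sample labels (the study's methods give slightly earlier times), and testes were taken at RA11.50, postnatal day 20.5. The Cre is active in germ cells, so the somatic cells of the testis are not targeted in either group.

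Cilia and flagella are built by trains of IFT proteins that run along the axoneme. The IFT-B complex is carried outward by kinesin-2 motors, the IFT-A complex is needed for the return trip with cytoplasmic dynein-2 and for the entry of membrane proteins, and the BBSome rides on the trains as an adaptor that takes membrane receptors out of the cilium. In the testis these proteins are known for building the sperm tail, which is assembled in spermatids. Many ciliary genes carry in their promoters an X-box, a pair of half-sites bound by RFX transcription factors, and Rfx2 is a known regulator of ciliary genes in male germ cells.

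The X-box is a sequence feature long linked to this pathway, so promoter windows were searched for it. RefSeq windows of 300 bases (GRCm38.p6, 250 bases before to 50 after the start of a transcript) were matched for 36 of the 41 genes. A pair was read as GTNNCC and GGNAAC, where N is any base, 1 to 3 bases apart and on either strand. It was present in 7 of the 36 genes (19.4%), Bbs1, Bbs4, Bbs7, Ift22, Ift57, Lztfl1 and Ttc26, against 2.61% of 17492 protein-coding genes. The single half-site GTTGCC, on either strand and overlapping some pairs, was present in 14 of the 36 genes (38.9%), against 14.3% of the 17492 genes. A gene counted when any of its windows matched, with 1.03 windows per gene in the pathway and 1.22 over all genes. The windows below, read 5′ to 3′ along the gene, show 5 pairs that lie before the transcript start, with the pair in capitals.
Bbs7, chr3:36613477-36613530 (minus strand), pair at bases -121 to -108 from the start: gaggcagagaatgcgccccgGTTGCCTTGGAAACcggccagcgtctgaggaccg
Ift22, chr5:136908097-136908150 (plus strand), pair at bases -33 to -20: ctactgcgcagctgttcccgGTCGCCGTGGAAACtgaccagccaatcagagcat
Ift57, chr16:49699214-49699266 (plus strand), pair at bases -60 to -48: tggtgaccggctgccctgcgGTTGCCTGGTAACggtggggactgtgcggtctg
Ttc26, chr6:38381471-38381524 (plus strand), pair at bases -33 to -20: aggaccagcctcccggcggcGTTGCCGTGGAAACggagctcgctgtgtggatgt
Lztfl1, chr9:123717755-123717809 (minus strand), pair at bases -164 to -150: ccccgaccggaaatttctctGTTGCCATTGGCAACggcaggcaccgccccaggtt

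Ift140, which had the lowest p of the pathway in the comparison of genotypes, had no pair in its window but held the half-site, read on the opposite strand as GGCAAC and shown in capitals.
Ift140, chr17:25015955-25016004 (plus strand), half-site at bases -109 to -104: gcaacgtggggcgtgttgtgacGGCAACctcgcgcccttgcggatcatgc
These matches describe letters in the windows and do not show binding. The 7 genes with a pair had a median log2 fold change (cKO against control) of -0.19, with 6 of 7 below 0, and the 29 genes without one a median of -0.14, with 24 of 29 below 0.

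The deposited unit was FPKM, in which the fragments of a gene are divided by its length and by a scaled library size, so that levels of different genes can be set side by side. FPKM multiplied by gene length gave back whole fragments, 13978342 to 19583091 per library. Each of the 41 genes was measured from 76 to 7231 fragments in a library. Ctrl1 stood apart from the other 7 libraries: 0.464% of its fragments were mitochondrial against 2.20% to 3.74%, and its Pearson correlation with them across genes, on a log scale, was 0.969 to 0.980 against 0.981 to 0.990 among the others. Values without Ctrl1 are therefore given where they bear on a result. Spdya had 20.8, 21.0, 23.8 and 19.7 FPKM in the control and 30.5, 22.2, 26.1 and 17.7 FPKM in the cKO libraries (log2 fold change 0.15, SE 0.16, limma adjusted p = 0.787). Counts over the whole gene with 1 deleted exon do not check the genotype labels.

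All 41 genes were transcribed in the testes of both groups, and all passed the filter of a mean above 1 FPKM in both. Their median level over the 8 libraries was 14.1 FPKM, against 9.54 FPKM over the 12141 protein-coding genes that passed, and 30 of the 41 lay above that value. The highest, Arl3, had 32.2 times the FPKM of the lowest, Bbs12. Spermatid markers were near 0 in these testes: of 8, 7 were below 1 FPKM in both groups, among them Prm1, Prm2 and Tnp1, and Spaca1 had 1.92 to 8.99 FPKM in the control libraries. Markers of the ciliated ducts next to the testis were near 0 too, with the 4 rete testis and efferent duct genes summing to 1.17 to 1.85 FPKM per library.

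**Figure D1:**
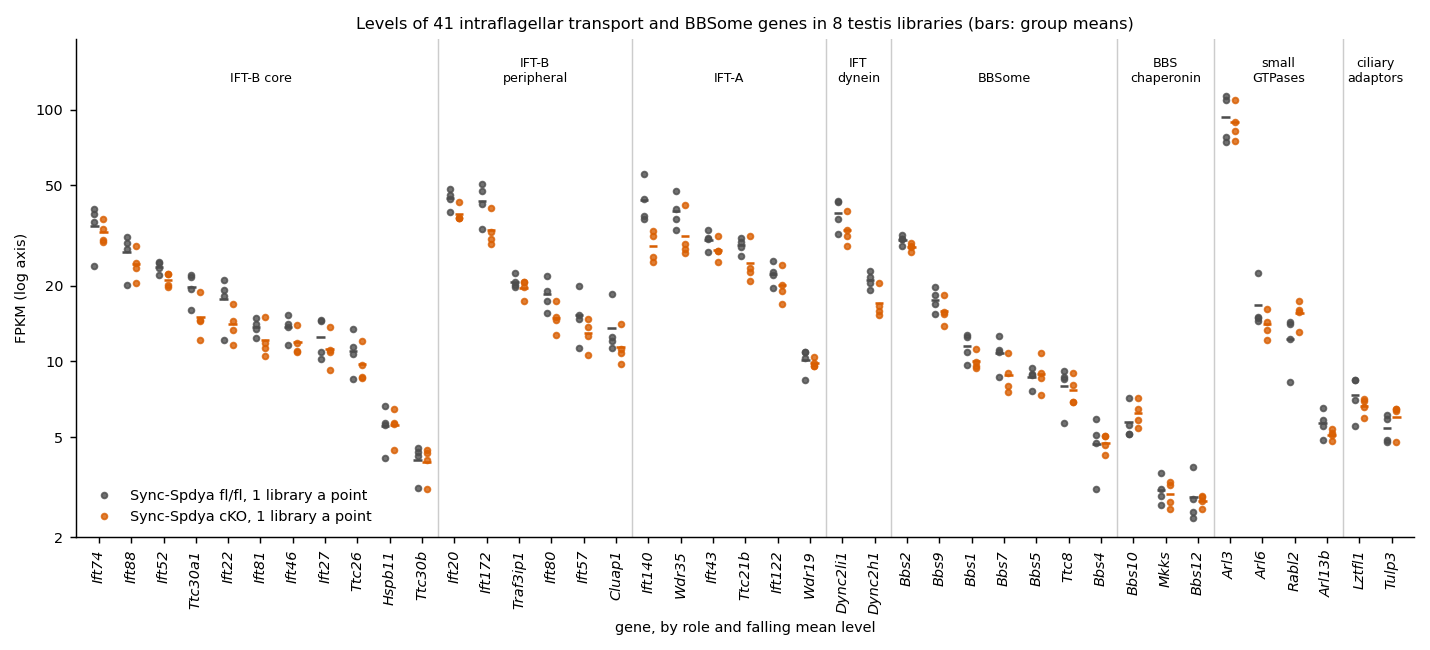
FPKM (log axis) of the 41 genes in each of 8 libraries, ordered by role and by falling mean level, with 1 point a library and a bar at each group mean. Levels run from about 3 FPKM for Bbs12 to about 90 FPKM for Arl3, and the points of the groups overlap in all genes but Ift140.

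No gene of the pathway passed the thresholds for differential expression between the genotypes, and most had slightly lower values in the cKO testes. A gene was called at a limma adjusted p below 0.05 with an absolute log2 fold change above 1, which 0 of the 41 genes reached, against 0.0165% of the 12141 genes tested. That share is 2 genes, fewer than the study's own test on counts called on autosomes at the same thresholds. voom on the recovered fragments called 0 of the 41 as well, with 5 lower at an unadjusted p below 0.05. At an unadjusted p below 0.05, 5 genes were lower (Ift140, Dync2h1, Ttc30a1, Ift172 and Ift80), where the share over all genes was 5%, and 0 were higher, where it was 5.89%. The log2 fold change was below 0 in 35 of 41 genes against 48% of all genes, with a median of -0.15 against 0.01 over all genes. The exceptions were Hspb11, Bbs4, Bbs5, Bbs10, Rabl2 and Tulp3. The differences were small: every one of the 41 confidence intervals (95%) lay between -0.93 and 0.76, so none reached a 2-fold change in either direction, and 36 included 0. Adjusted p ranged from 0.229 to 0.975. The genes share libraries, so the 35 are not 35 independent observations.

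**Figure D2:**
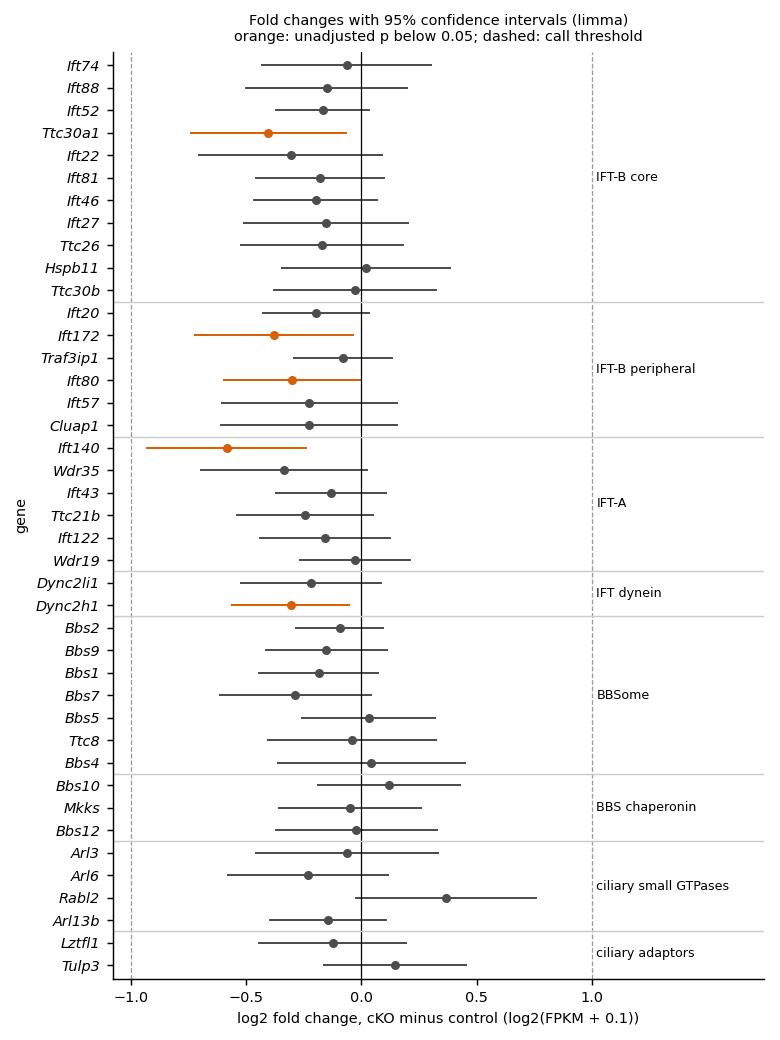
Log2 fold change (cKO minus control, on log2(FPKM + 0.1)) with its 95% confidence interval for each of the 41 genes, by role. The 5 genes in orange have an unadjusted p below 0.05, all are below 0, and no interval reaches the dashed lines at -1 and 1.

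The transport trains and their motor held all 5 of these genes. Of the 25 IFT-B, IFT-A and dynein-2 genes, 24 had a log2 fold change below 0 with a median of -0.20. Of the 16 genes of the BBSome, its chaperonin, the small GTPases and the adaptors, 11 were below 0 with a median of -0.06, and none had an unadjusted p below 0.05. This contrast depended on Ctrl1: without it, Bbs7 (-0.39) and Lztfl1 (-0.25) of the 16 had an unadjusted p below 0.05. Of the 25, Ift140, Ift80, Dync2h1, Ift88, Ift74 and Ttc30a1 then had one, and Ift172 did not. The difference between these gene groups was not tested.

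IFT-A, the complex of the return trip, held the gene with the clearest separation. Ift140 (ENSMUSG00000024169, chromosome 17 of GRCm38, 25016085 to 25099495) encodes a core subunit of IFT-A. It had 36.9, 44.2, 55.5 and 37.6 FPKM in the control and 33.0, 31.6, 26.0 and 24.7 FPKM in the cKO libraries. All 4 cKO values lay below the lowest control value, and it was the 1 gene of the 41 whose groups did not overlap in the direction lower in cKO, where this was so for 2.59% of all genes. A count of 1 in 41 is near that share over all genes. None of the 41 was separated in the other direction, against 3.64%. The mean was 43.6 ± 8.62 (SD, n = 4) in control and 28.8 ± 4.09 (n = 4) in cKO testes, 0.661 times the control. The log2 fold change was -0.59 (SE 0.15, interval -0.93 to -0.24), and the limma adjusted p over all genes was 0.229. Without Ctrl1 it was -0.66. Tmem204 lies within the Ift140 locus on the opposite strand with 3.30 FPKM in control and 4.41 FPKM in cKO testes, and since use of strand in counting is not given in the sources used here, shared fragments cannot be told apart.

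The other IFT-A genes had smaller differences. Wdr35, Ttc21b, Ift122 and Ift43 had log2 fold changes from -0.34 to -0.13, with group means of 22.3 to 39.4 FPKM in controls. Wdr19, another core subunit of IFT-A and the lowest of the 6 in level, had 8.39, 10.3, 10.9 and 10.8 FPKM in the control and 10.4, 9.86, 9.54 and 9.55 FPKM in the cKO libraries. Ctrl1 was the low library here, and the cKO values lay within the control range. Its log2 fold change was -0.03 (SE 0.11, interval -0.27 to 0.21).

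Dync2h1 (ENSMUSG00000047193, chromosome 9, 6928503 to 7184446), the heavy chain of the retrograde dynein-2 motor, had 21.6, 19.2, 22.9 and 20.5 FPKM in the control and 20.4, 16.7, 15.8 and 15.3 FPKM in the cKO libraries. Of the cKO libraries, 3 lay below all controls and cKO1 lay among them. The log2 fold change was -0.31 (SE 0.11, limma adjusted p = 0.382). Dync2li1, its light intermediate chain, had 43.1, 43.4, 36.6 and 32.1 FPKM in the control and 39.6, 31.4, 33.3 and 28.8 FPKM in the cKO libraries. Its groups overlapped, and the log2 fold change was -0.22 (SE 0.14).

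The IFT-B core, the part of the train that carries tubulin, gave 10 of 11 genes below 0, with a median log2 fold change of -0.17. Ttc30a1 (ENSMUSG00000075271, chromosome 2, 75978247 to 75981967), a core subunit, had 21.7, 19.4, 22.1 and 16.0 FPKM in the control and 18.8, 14.4, 14.6 and 12.2 FPKM in the cKO libraries. All cKO libraries except cKO1 lay below all controls, with a log2 fold change of -0.40 (SE 0.15, limma adjusted p = 0.387). Its neighbour Ttc30b had 4.52, 4.35, 4.21 and 3.14 FPKM in the control and 4.07, 4.44, 3.10 and 4.30 FPKM in the cKO libraries, with overlapping groups and a log2 fold change of -0.03 (SE 0.16). The copies are alike: the longest GENCODE vM21 transcripts of Ttc30a1 and Ttc30a2 were 95.7% identical over 1973 aligned bases, and 12.3% of the 150-base windows of Ttc30a1 occur exactly in Ttc30a2 and 1.76% in Ttc30b, so fragments could be split between them. Ttc30a2, the third copy and not among the 41, had 18.2, 18.1, 21.8 and 14.3 FPKM in the control and 16.5, 11.9, 10.9 and 10.3 FPKM in the cKO libraries. All cKO libraries except cKO1 again lay below all controls, with a log2 fold change of -0.55 (SE 0.17, limma adjusted p = 0.287).

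The most abundant core transcript was Ift74, whose product binds tubulin together with Ift81. It had 23.9, 38.6, 40.2 and 35.7 FPKM in the control and 36.7, 30.2, 33.4 and 29.8 FPKM in the cKO libraries. Ctrl1 lay far below the other controls, and the log2 fold change was -0.06 with Ctrl1 and -0.23 without it. Ift88, the gene of the classical mouse cilia mutant, behaved likewise, with -0.15 with Ctrl1 and -0.29 without. The remaining core genes, Ift22, Ift27, Ift46, Ift52, Ift81, Ttc26 and Hspb11, had log2 fold changes from -0.31 to 0.02 and control means from 5.51 to 23.7 FPKM.

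All 6 peripheral IFT-B genes, whose products attach to the core of the train, were below 0, with a median of -0.23. Ift172 (ENSMUSG00000038564, chromosome 5, 31253277 to 31291116), the largest of these subunits, had 50.7, 42.1, 47.5 and 33.5 FPKM in the control and 40.8, 32.5, 30.5 and 29.1 FPKM in the cKO libraries. Ctrl4 was the low control and cKO1 the high cKO library, and the other 3 cKO values lay below all controls. The log2 fold change was -0.38 (SE 0.15, limma adjusted p = 0.420). Without Ctrl1 it was -0.30 and its unadjusted p was no longer below the threshold. Ift80 (ENSMUSG00000027778, chromosome 3, 68892499 to 69004570) had 15.6, 19.0, 21.8 and 17.3 FPKM in the control and 17.3, 14.6, 15.0 and 12.7 FPKM in the cKO libraries. Its log2 fold change was -0.30 (SE 0.13, limma adjusted p = 0.450) and -0.38 without Ctrl1. A processed pseudogene inside Ift80, Gm18588, was listed with 12.0 FPKM in control and 13.5 FPKM in cKO testes.

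**Figure D3:**
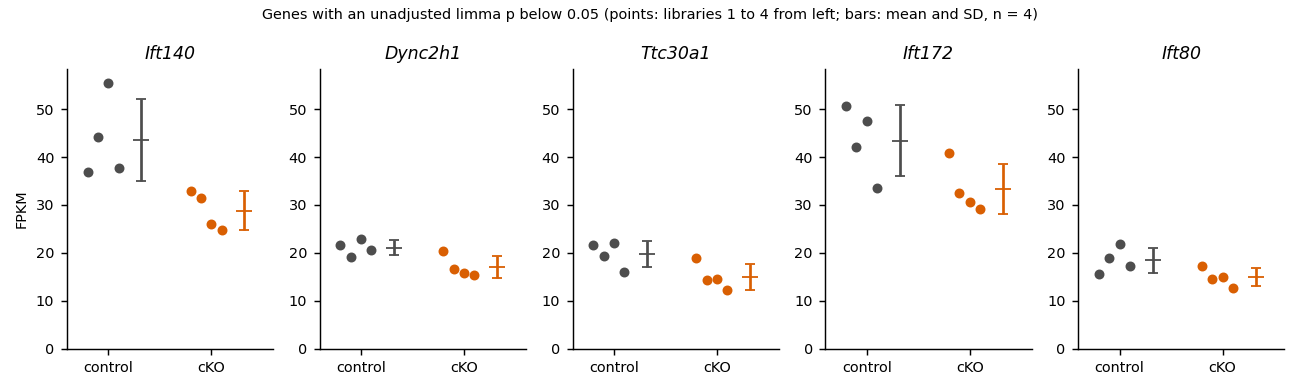
FPKM in each library (points, replicates 1 to 4 from left to right) with the group mean and SD (n = 4) for the 5 genes with an unadjusted p below 0.05. The control and cKO points are separate for Ift140, and in Dync2h1, Ttc30a1, Ift172 and Ift80 the cKO1 point overlaps the controls.

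Ift20, which sorts membrane cargo from the Golgi, was the most abundant peripheral transcript, with 48.4, 45.9, 44.0 and 39.1 FPKM in the control and 42.7, 37.2, 37.3 and 37.1 FPKM in the cKO libraries. The 3 cKO libraries other than cKO1 were nearly equal and below all controls, and the log2 fold change was -0.20 (SE 0.10, limma adjusted p = 0.542). Cluap1, the lowest of the group, had 18.5, 12.0, 11.3 and 12.5 FPKM in the control and 14.1, 10.8, 11.2 and 9.72 FPKM in the cKO libraries. Ctrl1 was its highest library, and the log2 fold change went from -0.23 to -0.07 when Ctrl1 was left out. Traf3ip1 and Ift57 had -0.08 and -0.23.

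The 7 BBSome subunits were closer to no change, with 5 of 7 below 0 and a median log2 fold change of -0.09. Bbs2, the most abundant, had 30.5, 31.7, 30.5 and 28.6 FPKM in the control and 29.4, 28.6, 28.5 and 27.1 FPKM in the cKO libraries. It varied least between controls of the 41 genes (SD 4.20% of the mean), and its interval of -0.28 to 0.10 was correspondingly narrow. Bbs4, the least abundant, had 3.10, 4.73, 5.12 and 5.89 FPKM in the control and 4.25, 4.65, 5.03 and 5.03 FPKM in the cKO libraries. It varied most between controls (SD 25.0% of the mean), with Ctrl1 the low library, and its log2 fold change was 0.04 with Ctrl1 and -0.14 without. Bbs4 shares 2063 bases of its locus with Adpgk on the opposite strand, which had 6.68 FPKM in control and 6.11 FPKM in cKO testes. Bbs1, Bbs5, Bbs7, Bbs9 and Ttc8 ranged from -0.29 (Bbs7) to 0.03 (Bbs5). Without Ctrl1, Bbs7 had -0.39 and its unadjusted p fell below 0.05.

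The chaperonin genes Mkks, Bbs10 and Bbs12, whose products fold and assemble the BBSome, ranked 40, 34 and 41 of the 41 by level. Bbs10 had 5.16, 5.59, 7.16 and 5.14 FPKM in the control and 7.17, 5.85, 6.48 and 5.45 FPKM in the cKO libraries, with overlapping groups and a log2 fold change of 0.12 (SE 0.14). Bbs12 had 2.38, 2.83, 2.52 and 3.81 FPKM in the control and 2.88, 2.60, 2.78 and 2.93 FPKM in the cKO libraries, with a log2 fold change of -0.02 (SE 0.16). Its cKO values lay within the control range. Bbs12 shares 155 bases with Cetn4 on the opposite strand, which had 14.2 FPKM in control and 8.30 FPKM in cKO testes. Of the 41 genes, 19 overlap another annotated gene, and the part of shared fragments in their values was not tested.

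Arl3, a GTPase that releases lipid-modified cargo in the cilium, was the most abundant transcript of the 41. It had 74.4, 113, 110 and 77.9 FPKM in the control and 109, 75.0, 89.3 and 82.4 FPKM in the cKO libraries. Each group held both high and low libraries, and the log2 fold change was -0.06 (SE 0.18). It was -0.17 without Ctrl1, 0.04 without Ctrl2, 0.02 without Ctrl3 and 0.01 without cKO2. Arl13b, which activates Arl3, was the lowest GTPase, with 6.51, 4.88, 5.51 and 5.84 FPKM in the control and 5.39, 5.17, 4.80 and 5.08 FPKM in the cKO libraries and a log2 fold change of -0.14 (SE 0.11), or -0.08 without Ctrl1. Rabl2, which releases trains from the base of the cilium, had the highest log2 fold change of the 41 and is named here after its values were seen. It had 8.27, 14.3, 12.2 and 14.1 FPKM in the control and 17.3, 15.7, 16.0 and 13.0 FPKM in the cKO libraries. Of the cKO libraries, 3 lay above all controls and Ctrl1 was far below the rest, and the log2 fold change was 0.37 (SE 0.17, limma adjusted p = 0.492) with Ctrl1 and 0.19 without it. Arl6, which recruits the BBSome to membranes, had -0.23 with Ctrl1 and -0.08 without.

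The adaptors differed in direction without separating the groups. Lztfl1, a BBSome regulator, had 5.56, 7.03, 8.40 and 8.39 FPKM in the control and 7.10, 6.58, 6.94 and 5.97 FPKM in the cKO libraries (log2 fold change -0.13, SE 0.14). Without Ctrl1, its lowest control, the log2 fold change was -0.25 and the unadjusted p fell below 0.05. Tulp3, which couples IFT-A to membrane receptors, had 4.88, 5.92, 4.77 and 6.13 FPKM in the control and 4.80, 6.48, 6.49 and 6.32 FPKM in the cKO libraries (log2 fold change 0.15, SE 0.14). In Tulp3 the 3 cKO libraries other than cKO1 lay above all controls.

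The libraries of 1 genotype differed among themselves in a shared way. Within the cKO group cKO1 had the highest value in 36 of 41 genes, against 40.7% of all genes tested, and cKO4 had the lowest in 29, against 28.5%. Within the control group Ctrl3 was highest in 18 genes, against 21.8% of all genes, and Ctrl1 in 13, against 41.9%. Ctrl4 was lowest in 19 genes, against 34.8%, and Ctrl1 in 16, against 30.2%. The summed FPKM of the 25 train and dynein genes was 582, 582, 619 and 511 in the control and 571, 474, 467 and 428 in the cKO libraries. Leaving out cKO1 raised the number of genes lower at an unadjusted p below 0.05 from 5 to 12 (6.58% of all genes), and leaving out cKO4 lowered it to 1 (2.67%). The number also went to 1 without Ctrl3 (3.15% of all genes), cKO2 (3.39%) or cKO3 (2.86%), to 3 without Ctrl2 (4.94%) and to 11 without Ctrl4 (7.81%), so the share over all genes moved with the library left out as well. Without Ctrl1, 8 of the 41 genes were lower at an unadjusted p below 0.05 against 5.90% of all genes (Ift140, Ift80, Bbs7, Dync2h1, Ift88, Lztfl1, Ift74 and Ttc30a1), and 37 of 41 were below 0 against 42.8%, with a median of -0.14.

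**Figure D4:**
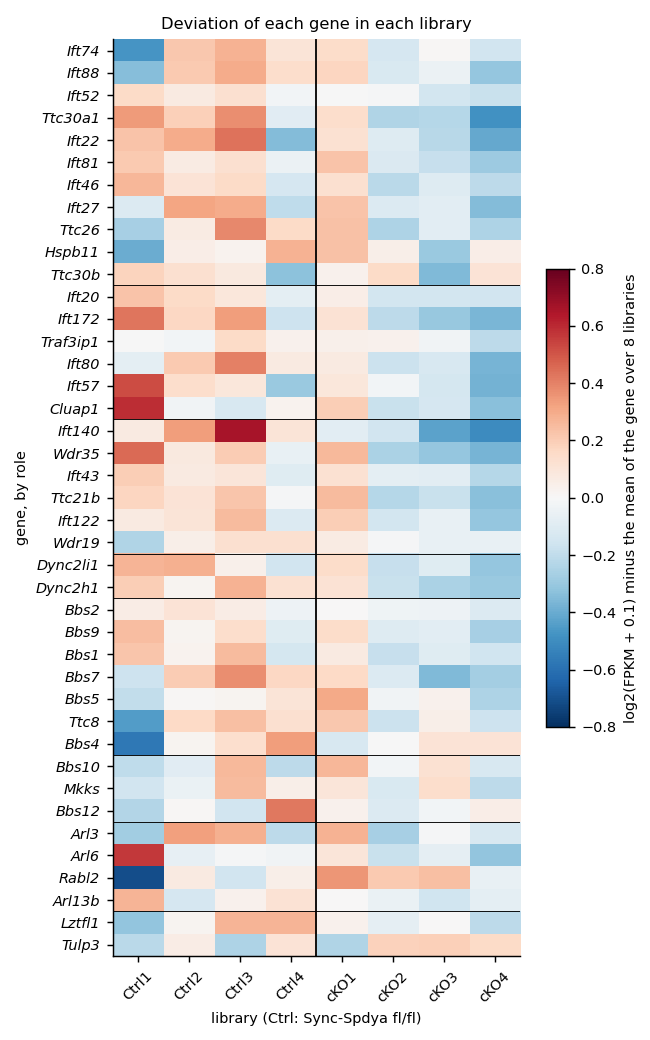
Log2(FPKM + 0.1) of each gene in each library minus the mean of that gene over the 8 libraries, from blue (lower) to red (higher), by role. Most rows are red in Ctrl2, Ctrl3 and cKO1 and blue in cKO4, and Ctrl1 holds strong colours of both signs.

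Markers of other cells moved with the same libraries. Of 8 markers of pachytene spermatocytes, the germ cells that the synchronization enriches, 6 passed the filter and all 6 had a log2 fold change below 0 (median -0.29). Among them Ldhc, a germ cell lactate dehydrogenase, had -0.73 (limma adjusted p = 0.287) and Piwil1, which binds piRNAs, -0.40 (limma adjusted p = 0.442). Pgk2, also among the 6, had -0.02. Outside the filter, Ccna1 was lower in cKO testes (1.65 FPKM in control and 0.964 FPKM in cKO). Hist1h1t, also outside it, was higher there, at 0.279 FPKM in control and 0.667 FPKM in cKO testes. The summed FPKM of the pachytene list was 1252, 1182, 1389 and 860 in the control and 1034, 828, 787 and 669 in the cKO libraries, so that Ctrl3 and cKO1 were again the highest of their groups and cKO4 the lowest. Ldhc and Hspa2 made most of that sum, with 524 and 389 FPKM in control testes. Among controls Hspa2 was highest in Ctrl2, and the other tested markers of this list in Ctrl3. Most somatic markers went the other way. Above 0 were 7 of 8 Sertoli, 4 of 4 tested peritubular and 5 of 5 tested macrophage genes. So were 5 of 5 endothelial and 3 of 3 tested Leydig cell genes, where 48% of all genes were below 0. Rhox5, a Sertoli gene above 0, had mean levels of 6.11 FPKM in control and 5.84 FPKM in cKO testes. Outside the filter, Tagln (peritubular) was lower in cKO testes, with 0.855 FPKM in control and 0.712 FPKM in cKO. Insl3 (Leydig) had 0.576 and 0.572 FPKM, and Cyp11a1, Cyp17a1 and Cd163 were higher in cKO testes. Summed Sertoli levels were 990 to 1337 FPKM in control and 1322 to 1565 FPKM in cKO libraries. Clu made most of that sum, with 823 FPKM in control and 1056 FPKM in cKO testes (log2 fold change 0.36). The other Sertoli genes had log2 fold changes from -0.02 (Dhh) to 0.19 (Gata4). Summed macrophage levels were 12.6 to 20.5 FPKM in control and 21.9 to 26.1 FPKM in cKO libraries. Spermatogonial markers had a median of 0.15, with 7 of 9 tested above 0. Early prophase markers had a median of -0.04, with 3 of 6 tested above 0, but were spread from -0.34 (Prdm9) to 0.69 (Meiob). Meiob had 13.7 to 18.5 FPKM in control and 19.6 to 38.5 FPKM in cKO libraries. Rad51ap2, an early prophase marker outside the filter, had 0.278 FPKM in control and 1.03 FPKM in cKO testes. Stra8, a retinoic acid target that marks differentiating spermatogonia, had a log2 fold change of -1.46 with 4.53 to 19.8 FPKM in control and 2.03 to 4.70 FPKM in cKO libraries. No marker passed the adjusted threshold. The study's own single-cell RNA-seq of pooled testes, taken slightly later, found a smaller share of spermatocytes and a larger share of spermatogonia in cKO testes. In bulk testis RNA, fewer cells of a type and less RNA per cell cannot be told apart, and the part of cell composition in the lower ciliary transcripts was not tested.

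**Figure D5:**
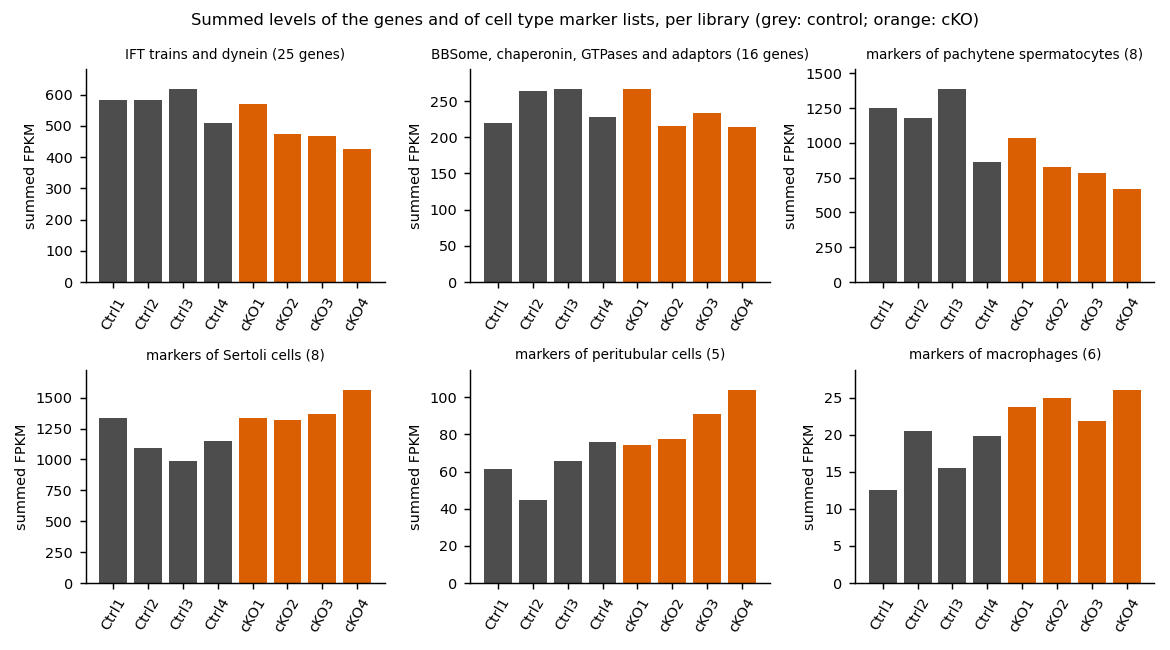
Summed FPKM per library of the 25 train and dynein genes, of the other 16 genes and of 4 cell type marker lists (bars from 0, control in grey and cKO in orange). The train genes and the pachytene markers both have their lowest bar in cKO4, and the Sertoli, peritubular and macrophage markers have their highest bar there.

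Beyond the 41, a list of 60 other genes of ciliary transport was read in the same fit, of which 57 were tested. Their median log2 fold change was -0.10, with 41 of 57 below 0, against 48% of all genes, and 0 were called. At an unadjusted p below 0.05, 10 were lower, where the share over all genes was 5%, and 2 were higher (Dynlrb1 and Unc119), where it was 5.89%. Groups did not overlap in Ahi1, Cep290 and Ttbk2, lower in cKO (2.59% of all genes), and in Dynlrb1, higher in cKO (3.64%). The smallest p belonged to Ahi1, a protein of the transition zone, the gate at the base of the cilium. It had 21.1, 20.2, 21.2 and 17.7 FPKM in the control and 15.2, 14.3, 15.2 and 13.0 FPKM in the cKO libraries, with no overlap (log2 fold change -0.47, SE 0.10, limma adjusted p = 0.150). Cep290, a large scaffold of the same gate, had 12.4, 11.2, 11.9 and 12.8 FPKM in the control and 10.1, 8.5, 7.72 and 7.56 FPKM in the cKO libraries, also with no overlap (log2 fold change -0.52, SE 0.11, limma adjusted p = 0.150). In both genes cKO1 lay below all controls too, unlike in the 4 train and motor genes other than Ift140. Of the 17 transition zone genes tested, 14 were below 0, against the same 48% of all genes, and 4 were lower at an unadjusted p below 0.05, against 5%. Dynlrb1, a dynein light chain, went the other way, with 34.1, 46.1, 40.6 and 39.5 FPKM in the control and 47.1, 50.2, 52.1 and 47.3 FPKM in the cKO libraries (log2 fold change 0.30, SE 0.11, limma adjusted p = 0.382). Ttbk2, a kinase that starts cilium assembly, had 9.92 to 12.6 FPKM in the control and 7.46 to 9.31 FPKM in the cKO libraries (log2 fold change -0.33, SE 0.11, limma adjusted p = 0.341).

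Groups overlapped in the motors of the outward trip and in the regulators. Kif3a and Kif3b, the motor subunits of kinesin-2, had log2 fold changes of -0.15 (SE 0.10) and -0.16 (SE 0.10). Their levels were 31.3 to 33.7 and 22.4 to 26.7 FPKM in the control and 27.1 to 33.1 and 20.5 to 24.6 FPKM in the cKO libraries. Rfx2 had 22.2, 26.2, 30.2 and 18.1 FPKM in the control and 26.1, 19.7, 21.2 and 16.7 FPKM in the cKO libraries (log2 fold change -0.20, SE 0.18, limma adjusted p = 0.748). Ctrl3 and cKO1 were its highest libraries in their groups, as for the summed train genes. Over all genes tested, Ctrl3 was the highest control in 21.8% and cKO1 the highest cKO library in 40.7%. A link between Rfx2 and the train genes was not tested. Stk36, a kinase on the list of regulators and 1 of the 10 lower genes, had 11.5, 11.3, 11.1 and 9.42 FPKM in the control and 10.1, 8.55, 8.44 and 7.25 FPKM in the cKO libraries, so that all cKO libraries except cKO1 lay below all controls (log2 fold change -0.34, SE 0.12, limma adjusted p = 0.352). Foxj1, the regulator of motile cilia, was near the filter with 0.884 to 1.33 FPKM in the control and 0.921 to 1.81 FPKM in the cKO libraries, and the multiciliation regulators Mcidas and Gmnc had at most 0.117 FPKM in any library.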

How the data were processed

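RNA-seq libraries of 8 testes, 1 per mouse, were analysed from FPKM values that the authors deposited in a table of 54532 genes and again per library, with equal values. Per the study's methods, libraries were sequenced as paired ends and FPKM made by the sequencing company's software. The submitters' processing notes name GRCm38 and mm10, and the aligner, counter and use of strand are not given in the sources used here. Recovered fragments were whole in 100% of values (tolerance 0.02). The study's own test on counts was not repeated. limma 3.58.1 in R 4.3.3 (lmFit, eBayes with trend) was fitted on log2(FPKM + 0.1), 4 against 4, over 12141 protein-coding genes with mean FPKM above 1 in both groups, with Benjamini-Hochberg adjustment over all of them. Fold changes on this scale understate those of low genes. Calls used adjusted p below 0.05 and absolute log2 fold change above 1. On simulated data, of 200 genes changed by 1.5 (log2) the fit recovered 187 with a dispersion of 0.02 and 185 with 0.05, beside 0 and 1 false calls.

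The genes, their roles, the marker lists and the tests were chosen with earlier results of these data known. Values per library are printed for genes with an unadjusted p below 0.05 or separate groups, and for the highest and lowest gene of each role. Of the other ciliary genes, those with the 3 smallest p and Rfx2, Kif3a and Kif3b are described. Any further gene was picked with its values in view. Alternatives were other pseudocounts, FPKM filters, scalings, weights and fits, a replicate block and each library left out. Promoters came from RefSeq (GRCm38.p6), and transcripts from GENCODE vM21.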

Additional observations from a re-analysis of the deposited data

Results flagged for a closer look

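Of 84 sets of 4 values examined, 1 gene or measure in 1 group at a time, a library stood far from the 3 others of its group in 5, where chance gives about 4.2. In cKO1, Ift20 had 42.7 FPKM against 37.1 to 37.3 FPKM in the other cKO libraries, Wdr35 had 41.7 against 26.9 to 29.1 FPKM, and Tulp3 had 4.80 against 6.32 to 6.49 FPKM. In Ctrl1, Arl6 had 22.4 FPKM against 14.5 to 15.0 FPKM in the other controls, and 0.464% of fragments were mitochondrial against 2.97% to 3.39%.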

How the results depend on the processing

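The count of called genes was 0 under all 18 alternatives, of 41 genes tested or of 37 where the mean FPKM had to exceed 5 in both groups, and the median log2 fold change stayed below 0 in all of them (-0.24 to -0.09), with 30 to 38 genes below 0. Weights per library (Ctrl1 at 0.161, cKO3 at 4.45) raised the genes lower at an unadjusted p below 0.05 from 5 to 19 (9.93% of all genes) and the other ciliary genes from 10 to 19. Under these weights Ift140 had a limma adjusted p of 0.0236 with a log2 fold change of -0.73. It thus passed the adjusted threshold and stayed uncalled by the fold change threshold alone. Genes with separate groups in either direction went from 1 (6.24% of all genes) to 2 (6.42%) under median centring on autosomal genes and to 4 (6.02%) under rescaling to TPM. Leaving out 1 library gave 1 to 12 genes lower (2.67% to 7.81% of all genes), 0 to 1 higher (2.98% to 9.66%) and 1 to 12 with separate groups (7.10% to 15.4%), and 3 to 13 other ciliary genes lower and 0 to 3 higher. The cause was not tested. Same-numbered libraries of the groups deviated together with correlations of 0.288, 0.131, 0.0757 and 0.406, and since 1 of the 4 was not over 0.1 and no label ties the numbers to a shared litter or day, they were not taken as pairs. The study's methods describe the controls as littermates but do not say which libraries share a litter, so a litter structure may be present. A shared factor was not tested; Ctrl1, Ctrl2, Ctrl4, cKO1 and cKO4 correlated best with their own number. A fit with the replicate number as a block gave 6 genes lower (6.81% of all genes) against 5 (5%). Of the 5 named genes, Ift140 kept an unadjusted p below 0.05 in all fits, and the other 4 all lost it without Ctrl3, cKO2, cKO3 or cKO4. Ift172 also lost it without Ctrl1 or Ctrl2, and Ift80 without Ctrl2 or Ctrl4, under median centring, under empirical Bayes without a trend and with the replicate block. With 0 genes called, no call could reverse, but small estimates changed sign when 1 library was left out: Ift74 and Wdr19 without Ctrl3 (0.02 and 0.01), Ttc30b without Ctrl1 (0.03), Bbs12 without Ctrl4 (0.11) and Bbs4 without Ctrl1 (-0.14) among them.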
